A study of Mus musculus with 7 samples.

Results

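Mitochondrial fusion, fission and mitophagy genes are described here as 10 genes of 19938 measured in mouse muscle. They are the fusion genes Mfn1, Mfn2 and Opa1 with the protease gene Oma1, the fission genes Dnm1l, Mff and Fis1, and the mitophagy receptor genes Bcl2l13, Fundc1 and Bnip3. Each gene was read through the probe set that the platform annotation gives to that symbol alone, and where a gene had several, the brightest on average was taken. The extensor digitorum longus, a fast-twitch hindlimb muscle, was taken from 3 AMPKα1α2 double knockout mice (KO) and 4 wild type mice (WT), both on a mixed background of C57/Bl6 and SV129. AMPK is a kinase switched on when cellular energy runs low, and α1 and α2 are its catalytic subunits. The labels used here give no age, sex, exercise state, promoter or Cre line, so whether the subunits were lost from muscle alone is not known from them. The study's title concerns muscle use of fatty acids in exercise, and the comparison asks how transcripts differ between the genotypes.

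Mitochondria in muscle form a network that is joined by fusion, divided by fission and cleared by mitophagy. Mfn1 and Mfn2 encode the mitofusins, GTPases that join outer membranes, and Opa1 encodes the GTPase that joins inner membranes and shapes cristae. Dnm1l encodes Drp1, the GTPase that constricts mitochondria after it is recruited by outer membrane adaptors such as Mff. AMPK is known to phosphorylate the Mff protein and the autophagy kinase Ulk1, and such protein changes are not read by a transcript array.

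The promoters of the 3 fusion GTPase genes are shown because these genes had the most negative differences of the 10. Each sequence runs 5′ to 3′ from 250 bases before to 50 bases after the most upstream RefSeq start in GRCm38.p6. Capitals mark matches on either strand to the NRF1 motif GCGCANGCG, the ETS motif CCGGAAGT or the letters CCAAT. The run of capitals nearest the start of Opa1 holds 2 overlapping NRF1 matches, one on each strand. Mfn1 lies at chr3:32529232-32529531 on the plus strand, Mfn2 at chr4:147904860-147905159 on the minus strand and Opa1 at chr16:29579084-29579383 on the plus strand.
Mfn1: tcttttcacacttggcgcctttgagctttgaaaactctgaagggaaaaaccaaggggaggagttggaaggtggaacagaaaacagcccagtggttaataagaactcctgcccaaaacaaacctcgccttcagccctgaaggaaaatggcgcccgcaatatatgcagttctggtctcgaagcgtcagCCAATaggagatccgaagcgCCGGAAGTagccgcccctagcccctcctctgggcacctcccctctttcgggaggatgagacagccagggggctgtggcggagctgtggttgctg
Mfn2: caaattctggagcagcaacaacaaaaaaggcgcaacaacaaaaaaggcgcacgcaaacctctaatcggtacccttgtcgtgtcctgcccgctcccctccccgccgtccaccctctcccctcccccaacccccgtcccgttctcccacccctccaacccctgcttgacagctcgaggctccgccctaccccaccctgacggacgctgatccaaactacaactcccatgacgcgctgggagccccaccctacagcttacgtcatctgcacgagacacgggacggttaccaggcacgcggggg
Opa1: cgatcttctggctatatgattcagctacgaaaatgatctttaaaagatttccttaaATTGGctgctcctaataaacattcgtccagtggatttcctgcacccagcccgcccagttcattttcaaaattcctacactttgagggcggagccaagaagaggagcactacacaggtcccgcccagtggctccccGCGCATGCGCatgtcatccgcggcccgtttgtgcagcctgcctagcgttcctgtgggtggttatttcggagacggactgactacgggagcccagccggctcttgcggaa

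All 10 members had a promoter in the RefSeq table, and 15 starts were searched in all. The NRF1 motif, bound by a factor that activates many nuclear genes for mitochondrial proteins, was in promoters of 4 members (Bcl2l13, Bnip3, Oma1 and Opa1) and in 6.25% of the 32851 promoters of 300 bases. The ETS motif was in those of Fis1 and Mfn1 and in 3.89% of all promoters, and CCAAT in those of 6 members and in 37.4%. The E-box CACGTG was in the Bnip3 promoter and in 7.15% of all promoters. The ERR motif TNAAGGTCA (1.28% of all promoters) and the YY1 motif AAGATGGC (2.75%) were in the window of 0 members. The Mfn2 sequence above held no match to the NRF1 motif, the ETS motif or CCAAT, and so has no capitals. Members were counted by gene, over any of their starts, and the percentages by single promoter, so the 2 are not in the same unit. The promoters of the 4 members with the NRF1 motif held 53.3% to 71.7% G and C, against a median of 52.7% for all promoters. No share among promoters of like content was computed. A match is a description of letters and not a site.

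Array medians lay between 7.501 and 7.584 on the log2 scale, and the fibre marker list, with Acta1 and Ckm among its 11 genes, averaged 13.55 to 13.59 in KO and 13.49 to 13.55 in WT muscle. The targeted Prkaa1 read 9.09, 9.19 and 8.80 in KO replicates 1 to 3, against 9.54, 9.48, 9.61 and 9.53 in WT replicates 1 to 4. Prkaa2 read 12.04, 11.95 and 12.04 in KO, against 12.30, 12.03, 12.28 and 12.28 in WT. In limma Prkaa1 had an adjusted p of 0.12 and Prkaa2 one of 0.39. Which exons were removed is not stated in the labels used here, so these probe sets neither establish nor deny the loss of both subunits. KO replicates 2 and 3 stood apart from the others on the first principal component (20.3 and 12.2, against -0.646 in KO replicate 1 and -10.7 to -5.22 in WT). KO replicate 3 also had the lowest array weight, 0.294 against 0.765 to 1.99 in the others. Each member is therefore also given with arrays left out where that moves its difference by over 1.5 times.

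The 10 genes all had a lower mean in KO than in WT muscle, by 0.02 to 0.34 log2 units, with a median difference of -0.10. Over all 19938 genes the median difference was -0.0049, and the mean was lower in KO for 53.4% of them. In bulk muscle, fewer cells of a type and less RNA per cell cannot be told apart. None of the 10 passed the test: with p-values from limma, Benjamini-Hochberg adjusted over every tested probe set, their adjusted p ran from 0.26 to 0.88, and 0 of 10 were called at 0.05, against 0.0251% of all genes (5 genes). At an unadjusted p under 0.05, 5 of the 10 were lower (Mfn2, Opa1, Bcl2l13, Mfn1 and Mff) and 0 were higher, against 6.69% of all genes lower and 3.93% higher. That count was 3 without KO replicate 1, 3 without WT replicate 1 and 2 (Mfn2 and Opa1) with the replicate number as a block. No share of all genes was computed for those fits. When each of the 7 arrays was left out in turn, Mff missed an unadjusted p of 0.05 in 6 fits and Mfn1 in 3, while Mfn2, Opa1 and Bcl2l13 missed it in 0. For 4 of the 10 (Mfn2, Opa1, Mff and Bcl2l13) all KO arrays lay below all WT arrays, against 5.33% of all genes, and for 0 of the 10 all lay above, against 3.29%. An exact two-sided permutation test over the 35 groupings of the arrays cannot go below 0.057, the value that each of these 4 reached. The members were chosen with earlier results of these data known, so their excess over the shares of all genes is only a description. Their mean levels were high, at the 74.8th percentile of all genes for Oma1 and the 92.7th to 98.5th for the others. The shares are over genes of every level, and none among genes of like level was computed.

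**Figure D1:**
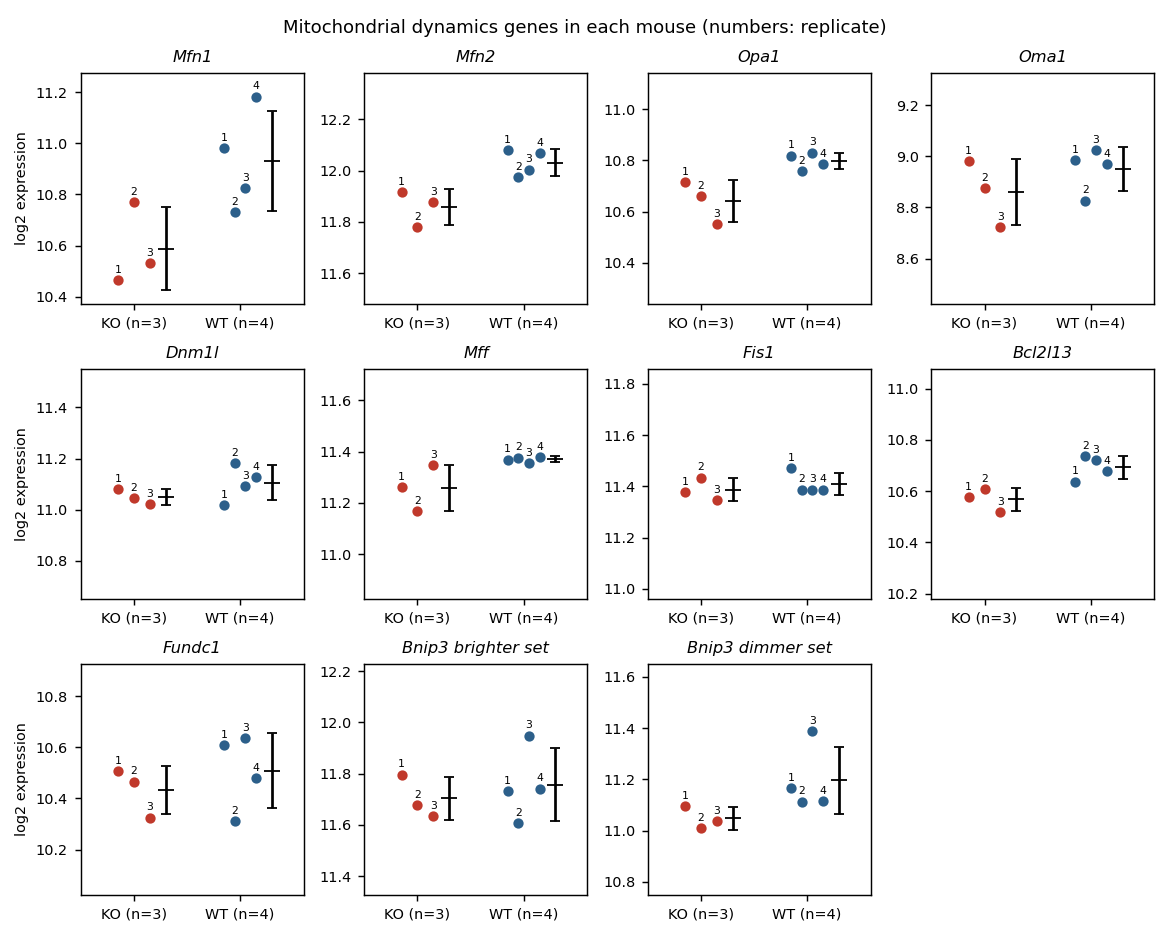
Log2 expression (vertical axis) of each gene in 3 KO arrays (left, red) and 4 WT arrays (right, blue), with the replicate number above each point and the mean ± SD beside each group. Every panel spans the same number of log2 units. The groups do not overlap for Mfn2, Opa1, Mff, Bcl2l13 and the dimmer Bnip3 probe set.

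Among the outer membrane fusion genes, Mfn2 (probe set 10518385) read 11.92, 11.78 and 11.88 in KO replicates 1 to 3, against 12.08, 11.97, 12.00 and 12.07 in WT replicates 1 to 4. Every KO array lay below every WT array, and KO replicate 2 was the lowest. The means were 11.86 ± 0.07 in KO (SD, n = 3) and 12.03 ± 0.05 in WT (SD, n = 4), so that the log2 difference was -0.17 ± 0.05 (SE) with a 95% interval of -0.28 to -0.07, or 11.3% lower (limma unadjusted p = 0.0066, adjusted p = 0.26). It had the smallest p of the 10 members and stood 497th among all genes. Mfn1 (probe set 10491363) read 10.46, 10.77 and 10.53 in KO, against 10.98, 10.73, 10.83 and 11.18 in WT. KO replicate 2 lay above WT replicate 2, so the groups overlapped, and WT replicate 4 was the highest array.

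The Mfn1 means were 10.59 ± 0.16 in KO (SD, n = 3) and 10.93 ± 0.20 in WT (SD, n = 4). Its log2 difference, -0.34 ± 0.12 (SE), was the most negative of the 10, at 21.1% lower, and its 95% interval of -0.63 to -0.06 was also the widest (limma unadjusted p = 0.026, adjusted p = 0.41). The difference was -0.26 without WT replicate 4 and -0.43 without KO replicate 2. Within each genotype the SD of Mfn1 was larger than that of Mfn2.

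Opa1 (probe set 10434888), for inner membrane fusion, read 10.71, 10.66 and 10.55 in KO, against 10.82, 10.76, 10.83 and 10.78 in WT. All KO arrays were below all WT arrays, with KO replicate 3 the lowest. The means were 10.64 ± 0.08 in KO (SD, n = 3) and 10.80 ± 0.03 in WT (SD, n = 4), and their log2 difference was -0.16 ± 0.05 (SE), or 10.3% lower (95% interval -0.26 to -0.05, limma unadjusted p = 0.011, adjusted p = 0.31). It was -0.11 without KO replicate 3. Oma1 (probe set 10506415) encodes a stress-activated inner membrane protease that cleaves Opa1 protein. It read 8.98, 8.88 and 8.72 in KO, against 8.98, 8.83, 9.02 and 8.97 in WT. The groups overlapped, KO replicate 1 standing level with WT replicate 1, and the log2 difference of -0.09 ± 0.07 (SE, limma adjusted p = 0.72) was -0.02 without KO replicate 3 and -0.15 without KO replicate 1. Its 95% interval, -0.26 to 0.08, holds the values of Mfn2 and Opa1 as well as 0.

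Of the fission genes, Dnm1l (probe set 10437992) read 11.08, 11.05 and 11.02 in KO, against 11.02, 11.18, 11.09 and 11.13 in WT. WT replicate 1 was the lowest of the 7 arrays, and the groups overlapped. The log2 difference was -0.06 ± 0.04 (SE), with a 95% interval of -0.16 to 0.05 (limma adjusted p = 0.72). It was -0.08 without WT replicate 1 and -0.03 without WT replicate 2. Fis1 (probe set 10526508), an outer membrane protein linked to fission, read 11.38, 11.43 and 11.35 in KO, against 11.47, 11.39, 11.39 and 11.39 in WT. Its log2 difference of -0.02 ± 0.04 (SE, limma adjusted p = 0.88) was the closest to 0 of the 10, with a 95% interval of -0.11 to 0.07. It was -0.05 without KO replicate 2, -0.0018 without KO replicate 3 and -0.00064 without WT replicate 1. WT replicates 2, 3 and 4 held the same deposited value for Fis1, as did at least 3 arrays for 33.6% of all genes, and Fis1 was the single member with such ties.

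Mff (probe set 10347862), the adaptor that recruits Drp1, read 11.26, 11.17 and 11.35 in KO, against 11.37, 11.38, 11.35 and 11.38 in WT. The 4 WT arrays were nearly level (SD 0.01), and KO replicate 3 at 11.348 came just under the lowest WT array at 11.354. The means were 11.26 ± 0.09 in KO (SD, n = 3) and 11.37 ± 0.01 in WT (SD, n = 4), and their log2 difference was -0.11 ± 0.04 (SE), or 7.42% lower (95% interval -0.22 to -0.01, limma unadjusted p = 0.042, adjusted p = 0.45). It was -0.07 without KO replicate 2 and -0.16 without KO replicate 3.

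**Figure D2:**
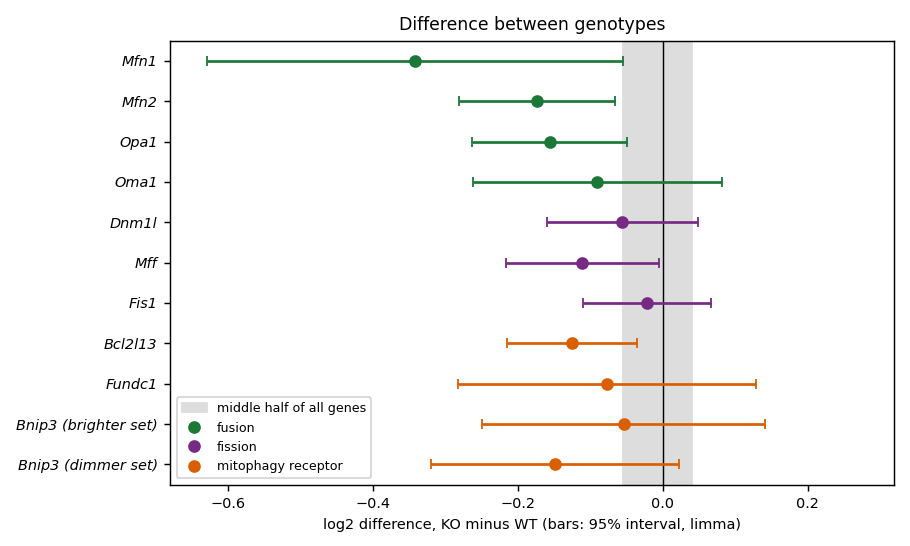
Log2 difference, KO minus WT (horizontal axis), with its 95% interval from limma for each gene, coloured by role. The grey band marks the quartiles of all genes, -0.06 to 0.04. All points lie left of 0, and the intervals of Mfn1, Mfn2, Opa1, Mff and Bcl2l13 stay below 0.

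The mitophagy receptors are outer membrane proteins that bind LC3-family proteins and so tether mitochondria to autophagosomes. Bcl2l13 (probe set 10541279) read 10.58, 10.61 and 10.52 in KO, against 10.64, 10.74, 10.72 and 10.68 in WT. Every KO array lay below every WT array. The means were 10.57 ± 0.04 in KO (SD, n = 3) and 10.69 ± 0.04 in WT (SD, n = 4), and their log2 difference was -0.13 ± 0.04 (SE), or 8.32% lower (95% interval -0.22 to -0.04, limma unadjusted p = 0.013, adjusted p = 0.33).

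Fundc1 (probe set 10603785), a receptor known for hypoxia-induced mitophagy, read 10.51, 10.47 and 10.33 in KO, against 10.61, 10.31, 10.63 and 10.48 in WT. WT replicate 2 was the lowest array and the groups overlapped. The log2 difference was -0.08 ± 0.09 (SE), with a 95% interval of -0.28 to 0.13 (limma adjusted p = 0.81), and it was -0.14 without WT replicate 2, -0.02 without KO replicate 3, -0.04 without WT replicate 1 and -0.03 without WT replicate 3.

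Bnip3, a receptor induced by hypoxia, was read by 2 probe sets that disagreed in size. The brighter one (10414269), which the rule takes, read 11.80, 11.68 and 11.63 in KO, against 11.73, 11.61, 11.95 and 11.74 in WT, a log2 difference of -0.05 ± 0.08 (SE, limma adjusted p = 0.86). Its sign turned without WT replicate 3, to 0.01, and it was -0.02 without KO replicate 3, -0.10 without KO replicate 1 and -0.11 without WT replicate 2. The dimmer one (10568785) read 11.10, 11.01 and 11.04 in KO, against 11.17, 11.11, 11.39 and 11.12 in WT. Here all KO arrays lay below all WT arrays, WT replicate 3 stood highest, and the difference was -0.15 ± 0.07 (SE, limma unadjusted p = 0.079, adjusted p = 0.54).

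In probe set number order, all 20 named neighbours of the dimmer Bnip3 probe set lie on chromosome 7, where RefSeq places Bnip3, while all 20 neighbours of the brighter one lie on chromosome 14. The annotation lists the same transcripts for both probe sets. Whether the brighter one reads Bnip3, a near copy of it, or both cannot be told apart here, and its value is uncertain. The related receptor gene Bnip3l showed a similar split. Its brighter probe set, with 19 of 20 neighbours on chromosome 12, where RefSeq lists the pseudogene Bnip3l-ps, differed by -0.15 ± 0.07 (SE, adjusted p = 0.47), and its dimmer one, with 19 of 20 on chromosome 14 where RefSeq places Bnip3l, by -0.16 ± 0.08 (SE, adjusted p = 0.55). Both are limma values, and both Bnip3l probe sets overlapped between the genotypes.

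**Figure D3:**
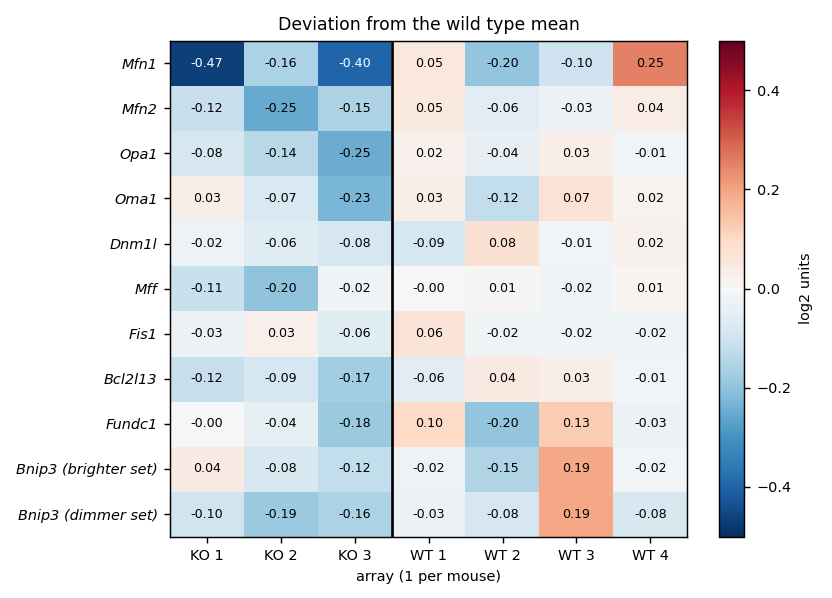
Deviation of each array (columns, KO left of WT) from the wild type mean of the same gene (rows), in log2 units, with blue below and red above that mean. KO replicate 3 is below the wild type mean in every row, and the Mfn1 row has the strongest colours, from -0.47 in KO replicate 1 to 0.25 in WT replicate 4.

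The arrays did not share 1 profile over the members. KO replicate 3 was below the wild type mean for 10 of 10 genes, KO replicate 2 for 9 and KO replicate 1 for 8, with median deviations of -0.16, -0.08 and -0.06. Over all genes the median deviations of those arrays were 0.01, -0.01 and -0.01. KO replicate 3 was the lowest of the 7 arrays for 4 members, KO replicate 2 for 2 and KO replicate 1 for 1. WT replicate 2 was below the wild type mean for 7 of 10 members and was the lowest array for 2. As the heatmap of deviations shows, Mff and Mfn2 were lowest in KO replicate 2, Opa1, Oma1, Bcl2l13 and Fis1 in KO replicate 3, and Mfn1 in KO replicate 1.

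The genes whose profile over the 7 arrays was most like that of a leading member were found by the root mean square difference of centred log2 values. For Mfn2 they were Rph3al (0.013 log2 units), Sympk (0.024) and Erg (0.029). For Opa1 they were Rsbn1l (0.016), Ndufs4, which encodes a subunit of respiratory complex I (0.016), and Rmnd5a (0.020). For Bcl2l13 they were Ddx24 (0.017), Tsc22d2 (0.021) and Mdp1 (0.021). The 3 members had 3 separate sets of nearest genes, and this likeness is a description with no test.

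Other genes of the same processes were read from 6 further lists with 71 genes, of which 65 were measured. At an adjusted p under 0.05 (limma, over all tested probe sets), 0 of the 65 were called. At an unadjusted p under 0.05, 13 were lower (20%, against 6.69% of all genes) and 4 higher (against 3.93% of all genes). The mean was lower in KO for 45 of 65, against 53.4% of all genes. These lists too were chosen with earlier results known, so the shares are only a description. Cristae organisation genes, which hold the folds of the inner membrane in place, stood lowest, with 5 of 7 lower at an unadjusted p under 0.05 and a median difference of -0.16. Chchd3, a subunit of the MICOS complex at cristae junctions, read 12.05, 12.07 and 11.99 in KO, against 12.18, 12.26, 12.24 and 12.22 in WT. Its difference of -0.19 ± 0.04 (SE, limma adjusted p = 0.13) separated the genotypes, as did that of Micos10, another MICOS subunit, at -0.19 ± 0.05 (SE, limma adjusted p = 0.30).

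Over all genes 6.69% were lower and 3.93% higher at an unadjusted p under 0.05. Among 8 other fusion-related genes 2 were lower and 0 higher at that threshold, with a median of -0.05. These were Miga2, a mitoguardin of the outer membrane that promotes fusion, at -0.27 ± 0.07 (SE, limma adjusted p = 0.27), and Parl, an inner membrane protease that also cleaves Pink1, at -0.26 ± 0.07 (SE, limma adjusted p = 0.28). In 12 other fission-related genes 1 was lower and 1 higher, with a median of -0.07. They were Mtfp1, an inner membrane fission protein, at -0.17 ± 0.07 (SE, limma adjusted p = 0.46), and Spire1, an actin nucleator, at 0.19 ± 0.07 (SE, limma adjusted p = 0.41).

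Of 17 other mitophagy genes 4 were lower and 1 higher at an unadjusted p under 0.05, with a median of -0.07. Over all genes 6.69% were lower and 3.93% higher. Vdac1, the outer membrane channel that Parkin ubiquitinates, read 13.14, 13.19 and 13.20 in KO, against 13.29, 13.26, 13.30 and 13.31 in WT, a difference of -0.11 ± 0.03 (SE, limma adjusted p = 0.28). Nbr1, a cargo receptor of autophagy, read 10.31, 10.31 and 10.30 in KO, against 10.10, 10.21, 10.16 and 10.16 in WT, a difference of 0.15 ± 0.03 (SE, limma adjusted p = 0.20). Nbr1 thus had a higher mean in KO, while that of the receptor gene Bcl2l13 was lower with the groups apart. The means of Bnip3l, Fundc1 and the brighter Bnip3 probe set were lower with the groups overlapping. The 17 core autophagy genes had 0 lower and 1 higher, with a median of -0.03. The one higher was Map1lc3a, an LC3 protein of the autophagosome membrane, at 0.13 ± 0.05 (SE, limma adjusted p = 0.46), and Pik3c3, the lipid kinase that starts autophagosome formation, stood at -0.11 ± 0.05 (SE, limma adjusted p = 0.50). Of 5 mitochondrial transport genes, the kinesin gene Kif5b differed by 0.11 ± 0.03 and its adaptor Trak2 by -0.12 ± 0.04 (SE, limma adjusted p = 0.33 and 0.35), with a list median of -0.06.

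**Figure D4:**
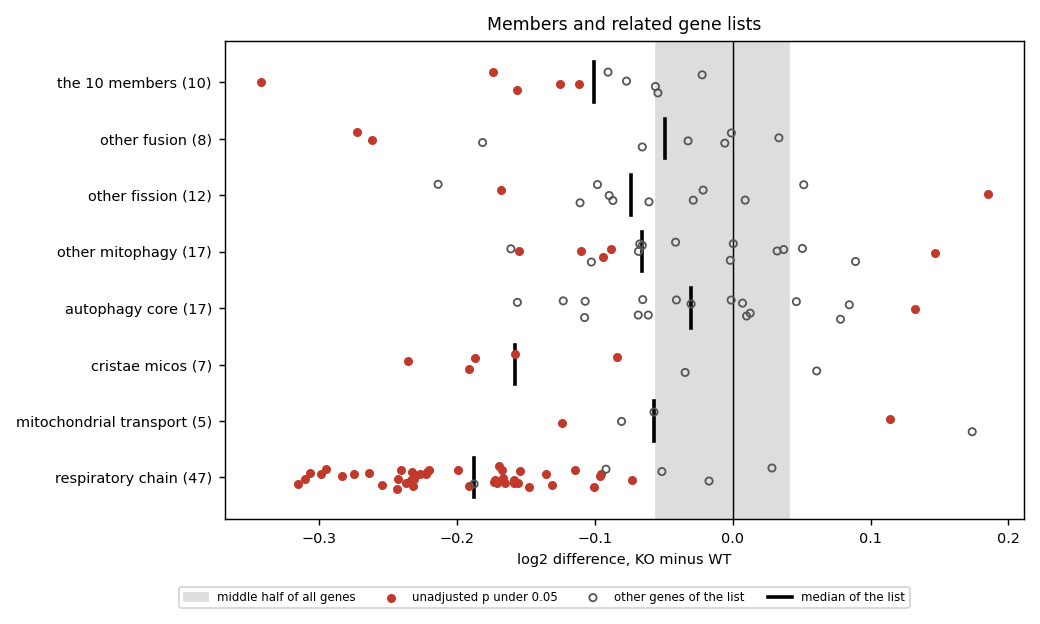
Log2 difference, KO minus WT (horizontal axis), of every measured gene in the members and 7 related lists (rows, with the number of genes), where red points have an unadjusted p under 0.05 in limma and black bars are medians. The medians run from -0.19 for the respiratory chain to -0.03 for core autophagy, and the members' median is -0.10.

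The members were set beside nuclear genes of the respiratory chain, as a reference for other transcripts of mitochondrial proteins. Of 47 measured, 42 were lower and 0 higher at an unadjusted p under 0.05, against 6.69% and 3.93% of all genes. After adjustment 0 of the 47 passed in limma. Their median and mean difference were both -0.19, with all KO arrays below all WT arrays for 41 of them, against 5.33% of all genes. Cox5a, a cytochrome oxidase subunit, differed by -0.31 ± 0.04 and Sdhc, a succinate dehydrogenase subunit, by -0.27 ± 0.03 (SE, limma adjusted p = 0.083 for both). Of the 10 members, 9 had a difference less negative than this list mean, and Mfn1 alone, at -0.34, had a more negative one. These are the same differences set beside the list mean and were given no test.

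Means of markers of other cell types also differed between the genotypes, though outside the macrophage list 0 of them passed limma after adjustment. The endothelial list had a lower mean in KO for 12 of 12 genes, its mean level being 9.265 to 9.392 in KO and 9.601 to 9.773 in WT. The macrophage list had a higher mean in KO for 12 of 12 genes, at 8.712 to 8.890 in KO and 8.098 to 8.331 in WT, and 2 of them (Lyz2 and Tyrobp) passed limma after adjustment. The slow fibre list was higher for 7 of 8 genes, at 8.770 to 9.341 in KO and 8.503 to 8.692 in WT, while the general fibre list differed by a median of 0.01. Immediate early genes averaged 1.99 log2 units above the wild type mean in KO replicate 2, against 0.07 and 0.28 in KO replicates 1 and 3. The mean was lower in KO for 6 of 8 pericyte and smooth muscle genes (median difference -0.24) and 5 of 6 adipocyte genes (-0.10). It was higher in KO for 6 of 7 fibro-adipogenic genes (0.41), 6 of 7 satellite cell genes (0.05) and 6 of 7 lymphocyte genes (0.04), while 2 erythroid and 4 Schwann cell genes were evenly split. Over all genes the mean was lower in KO for 53.4%. The upper quartile of all differences was 0.04, close to the satellite cell and lymphocyte medians. These arrays have no value of 0, so no marker can be called absent, and the part of these cell types in the members' differences was not tested.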

How the data were processed

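RNA of 7 muscles was extracted with TRIzol and biotin-labelled with an Ambion WT Expression kit, as the labels' protocols give it. The authors deposited 1 table of log2 values for 28856 probe sets. The log base is inferred, since values reach 14.65, above the 11.09 that a natural log of a 16-bit scanner value allows. Normalization, summarization and genome build were not given in the sources used, and scaling by the authors would hide any shift common to every gene.

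The 21789 probe sets with exactly 1 platform gene symbol were tested, standing for 19938 genes, and 1621 with several symbols and 5446 unnamed here were not. Knockout minus wild type was fitted with limma 3.58.1 (lmFit, eBayes) in R 4.3.3 with no covariate, filter or weights, and p-values were adjusted by Benjamini-Hochberg over all tested probe sets, with a threshold of 0.05. The fit was tested on simulated data. The exact permutation test doubled the smaller tail.

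The members and gene lists were chosen with earlier results of these data known. The text names all 10 members, the 2 genes of smallest p in each related list, the 3 genes most like each of the 3 members of smallest p, and both targeted genes. Other genes named (Bnip3l, Lyz2, Tyrobp, Acta1 and Ckm) were chosen after values were seen. The series design speaks of mice, so arrays were treated as separate animals. Deviations of same-numbered arrays correlated across probe sets at 0.30, 0.15 and -0.20, and those of differently numbered arrays at -0.273 to 0.201. The same-numbered values did not share a sign, so the numbers were not taken as pairs. The highest of all, 0.30, was a same-numbered pair, so these values do not settle whether arrays were paired. Alternatives were a replicate block, 3 other scalings, a filter, array weights, another prior, all probe sets, gene means, each array left out and, added after seeing the data, the dimmer Bnip3 probe set.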

Additional observations from a re-analysis of the deposited data

Results flagged for a closer look

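In WT muscle, Fis1 was flagged because 1 array stood apart from the others. WT replicate 1 read 11.47 and replicates 2, 3 and 4 held 1 identical value of 11.39, so the gap divided by the whole range was 1, above the critical value of 0.829 for 4 samples. The check was made on 11 probe sets, and chance flags about 1 in 20 where values have no ties. With 3 of the 4 values identical, the ratio is 1 for any other value of WT replicate 1. The flag therefore follows from the tie, and that rate does not apply to it. Without WT replicate 1 the Fis1 difference was -0.00064.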

How the results depend on the processing

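Over 16 alternatives 0 of the 10 members passed the adjusted threshold, except Fis1 after centring on the respiratory chain list. Centring on that list adds nearly the same 0.187 log2 units to the difference of every gene, so each member whose difference was smaller in size than this had to turn its sign, which says nothing further about the members: Mfn2 0.0133, Opa1 0.0309, Oma1 0.0968, Dnm1l 0.131, Mff 0.0759, Fis1 0.165, Bcl2l13 0.0617, Fundc1 0.11 and Bnip3 0.133. It also gave 11758 called genes, 1 called member, 0 members lower at an unadjusted p under 0.05 and 0 with the groups apart. Leaving out 1 array gave Bnip3 differences between -0.105 and 0.00984, with the sign turned without WT replicate 3, and no other sign turned. With the replicate number as a block (replicate block), which leaves WT replicate 4 without a partner, 0 genes were called and 2 members were lower at an unadjusted p under 0.05. These were Mfn2 and Opa1 (limma unadjusted p = 0.018 and 0.048), while Bcl2l13 had one of 0.056. When 1 array was left out, called genes ran from 0 to 14, called members stayed at 0, members lower at an unadjusted p under 0.05 ran from 3 to 4 and members with the groups apart from 4 to 6. For the last 2 counts no share of all genes was computed in those fits. With 1 array fewer the groups lie apart more easily, so a higher count there does not mean a clearer separation. Mfn2, Opa1 and Bcl2l13 kept an unadjusted p under 0.05 in each of those 7 fits, at most 0.021, 0.029 and 0.036. The cause of these changes was not tested. With 3 KO arrays, differences as small as those of Dnm1l, Fis1 and Fundc1 lie within the error.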
